A study of Mus musculus with 2 samples.

Results

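The genes described here encode the membrane skeleton and surface proteins of the red blood cell. They were taken by gene symbol from the deposited tables, which listed all 8 of them among 20938 genes: Sptb, Ank1, Epb41, Epb42, Slc4a1, Rhag, Rhd and Kel. RNA-seq was performed on Treg cells isolated from the spleen on day 7 post-transplantation, with 1 library per genotype. The first library, labelled Ctrl, came from littermate control mice, whose genotype is labelled wild type and given in the methods as Mettl14f/f. The second library, labelled KD, came from Foxp3-Mettl14f/+ cKO mice, which are heterozygous for a floxed Mettl14 allele and carry a Cre driven by Foxp3, so that deletion is aimed at Treg cells and 1 allele is left intact. The floxed line had a C57BL/6J background. Both sets of recipients were made diabetic with streptozotocin, received BALB/c islets under the kidney capsule and had no antibody treatment. The background of the Foxp3-Cre line, the age of the mice and the number of mice in each library were not given in the sources used here. The labels describe the genotype of the KD library as a Foxp3 knockdown, and Foxp3 had a level of 1497 in the Ctrl library and 1548 in the KD library. Mettl14 had a level of 917 in the Ctrl library and 741 in the KD library, a log2 fold change of -0.31 (95% counting interval -0.45 to -0.16). With T cell core genes set equal between the libraries, the change of Mettl14 was 0.0018, beside a median of 0.26 for all genes. These are RNA levels, whereas the paper reported lower METTL14 and FOXP3 protein by western blot in Treg cells of Foxp3-Mettl14f/+ mice. Because Foxp3 RNA was not lower, the libraries are named by their labels throughout.

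The red cell membrane is held in shape by a protein mesh on its inner face. Spectrin heterodimers form the strands of this mesh, protein 4.1 ties their ends to short actin filaments, and ankyrin ties the mesh to band 3, the anion exchanger that spans the membrane. Protein 4.2 steadies the contact between ankyrin and band 3, the Rh proteins sit in the same complex, and Kell is a surface enzyme and blood group antigen linked to the protein XK. These genes are switched on in nucleated erythroblasts, and the mouse spleen is a site of erythropoiesis. GATA1 and KLF1 are the transcription factors best known for activating genes in these cells.

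The set of RefSeq (GRCm38.p6) upstream windows used here covered 6 of the genes, Sptb, Epb41, Epb42, Rhag, Rhd and Kel. It held none for Ank1 and Slc4a1, so these were not searched for motifs. The 250 bases before the RefSeq start of transcription are printed for Sptb, Epb42, Rhag, Rhd and Kel, each with a single listed start, because these genes were lower together in the KD library. They are written 5′ to 3′ on the strand of the gene. Capitals mark matches on either strand to the GATA words AGATAA or TGATAA or AGATAG or TGATAG, and to CCNCNCCC, a CACCC-type word of the kind KLF1 binds.
Sptb, chr12:76710548-76710797, minus strand: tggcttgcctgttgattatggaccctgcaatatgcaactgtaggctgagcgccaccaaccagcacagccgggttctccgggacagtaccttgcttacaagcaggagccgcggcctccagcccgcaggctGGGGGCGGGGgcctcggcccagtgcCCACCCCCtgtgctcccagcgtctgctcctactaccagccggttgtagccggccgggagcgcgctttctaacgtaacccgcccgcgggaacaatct
Epb42, chr2:121036878-121037127, minus strand: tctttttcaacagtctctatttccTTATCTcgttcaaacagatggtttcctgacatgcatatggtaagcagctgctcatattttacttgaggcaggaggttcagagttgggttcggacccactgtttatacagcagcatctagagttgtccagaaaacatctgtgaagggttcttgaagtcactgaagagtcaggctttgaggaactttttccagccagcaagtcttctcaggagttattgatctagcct
Rhag, chr17:40810899-40811148, plus strand: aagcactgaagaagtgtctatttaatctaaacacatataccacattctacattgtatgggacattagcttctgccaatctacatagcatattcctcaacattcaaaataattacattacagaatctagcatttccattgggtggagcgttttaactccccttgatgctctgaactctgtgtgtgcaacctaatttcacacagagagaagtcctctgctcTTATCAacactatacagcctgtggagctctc
Rhd, chr4:134864286-134864535, plus strand: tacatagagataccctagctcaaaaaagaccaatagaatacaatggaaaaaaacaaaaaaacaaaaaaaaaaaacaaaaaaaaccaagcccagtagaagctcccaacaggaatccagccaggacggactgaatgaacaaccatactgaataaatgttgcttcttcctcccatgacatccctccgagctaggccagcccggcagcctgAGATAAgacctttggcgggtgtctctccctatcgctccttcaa
Kel, chr6:41704326-41704575, minus strand: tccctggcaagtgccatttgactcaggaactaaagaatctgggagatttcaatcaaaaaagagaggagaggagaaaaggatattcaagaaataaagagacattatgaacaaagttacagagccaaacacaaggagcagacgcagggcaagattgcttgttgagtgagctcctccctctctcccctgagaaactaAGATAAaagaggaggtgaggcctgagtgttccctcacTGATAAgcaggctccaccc

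A GATA word was present in the windows of Epb42, Rhag, Rhd and Kel, and in 1 of the 3 windows listed for Epb41. Among all 32851 windows of this length in the set, 26.5% held such a word. In Kel the matches lay 56 to 51 and 19 to 14 bases before the RefSeq start, in Rhd 43 to 38, in Rhag 31 to 26 and in Epb42 226 to 221. The position depends on the start chosen, since the GENCODE annotation begins Epb42 195 bases further upstream, which puts its match 31 to 26 bases before that start. It begins Rhag 23 and Kel 14 bases further upstream and Rhd at the same base. The window of Sptb held no GATA word and 3 matches to CCNCNCCC, of which 2 overlapped each other, and 2 of the 3 Epb41 windows also held this word, against 45.9% of all windows. No GATA match overlapped a CACCC match in these windows. The matches describe letters in a window and were not tested for binding.

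**Figure D1:**
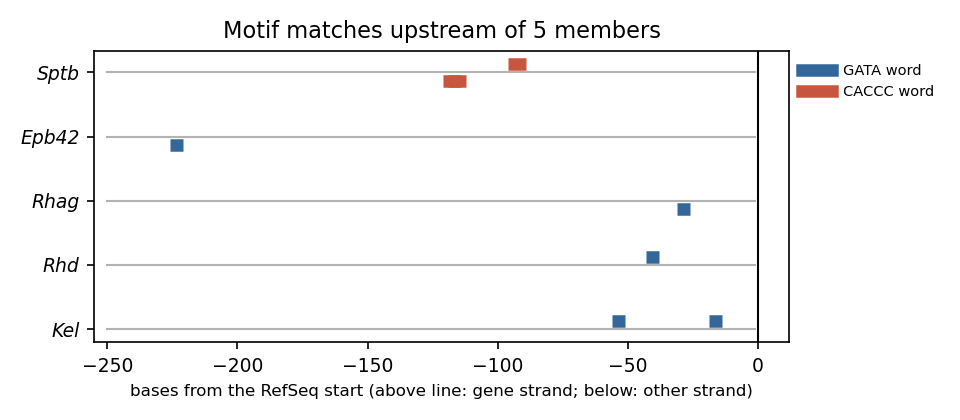
Positions of GATA words (blue) and CACCC words (red) in the 250 bases before the RefSeq start of 5 genes, with matches on the strand of the gene drawn above each line and matches on the other strand below it; the horizontal axis is the distance from that start in bases. In Rhag, Rhd and Kel the GATA words lie within 56 bases of the RefSeq start, and that of Epb42 lies 226 to 221 bases before it, or 31 to 26 bases before the GENCODE start.

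All of these genes except Epb41 had a lower level in the KD library. Levels are the deposited values, which scale the reads of each library by a single size factor, and changes are the log2 of the KD level plus 1 over the Ctrl level plus 1. A gene was called lower or higher when this change reached 1.5-fold, the threshold of the study, among the 16659 genes whose mean level reached 1. Of the 8 genes 7 were called lower and 0 higher, whereas 24.2% of all genes were called lower and 17.2% higher. The median change of the 8 genes was -1.23, against -0.04 for all genes. At a threshold of 2-fold the same 7 genes were called lower, against 18.1% of all genes called lower and 10.3% called higher. With 1 library per genotype there is no replicate check, so these values compare 2 libraries and not 2 genotypes. Intervals are exact Clopper-Pearson intervals on recovered reads. They cover only counting error, and PCR copies of a molecule were not told apart. The same genes, Epb41 aside, are among those the study picked as lower from these libraries, which is not independent evidence of their direction.

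**Figure D2:**
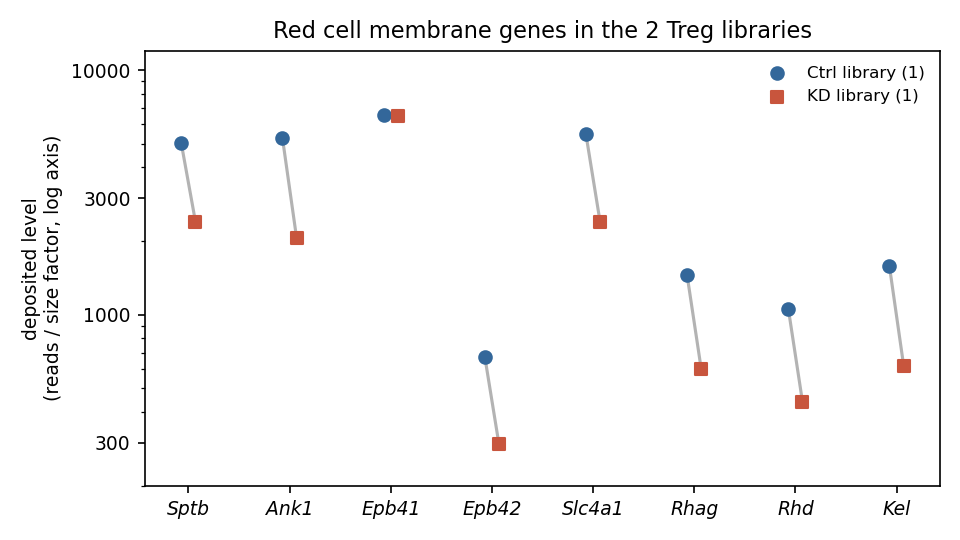
Deposited level (log axis) of each of the 8 genes in the Ctrl library (blue circles) and the KD library (red squares), 1 library each, joined by a grey line. Epb41 is the gene whose points lie level, at 6534 and 6476, and the other genes are lower in the KD library.

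Spectrin and its anchor were both lower. Sptb, which encodes the beta chain of erythroid spectrin, spans 76580488 to 76710547 of chromosome 12 (GRCm38, minus strand). It had 5192 reads and a level of 5023 in the Ctrl library, and 2113 reads and a level of 2403 in the KD library. Its log2 fold change was -1.06 (95% interval -1.14 to -0.99), the smallest fall of the 7 lower genes. Plekhg3, on the other strand, overlaps Sptb and had 1115 and 1525 reads in the Ctrl and KD libraries, so that its reads moved the other way, and whether reads were counted by strand is not given in the sources used here. Ank1, which encodes erythroid ankyrin, spans 22974844 to 23150497 of chromosome 8 (plus strand). It had 5456 reads in the Ctrl library and 1809 in the KD library, corresponding to levels of 5278 and 2057. Its log2 fold change was -1.36 (-1.44 to -1.28), the largest fall among the 8 genes. The antisense gene Gm15816 overlaps Ank1 and had 100 and 40 reads.

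Epb41 stood apart from the rest. It encodes protein 4.1, spans 131923413 to 132075321 of chromosome 4 (minus strand), and is known to be used by many nucleated cell types, lymphocytes included. Whether this use bears on its values here was not tested. It had 6754 reads and a level of 6534 in the Ctrl library and 5695 reads and a level of 6476 in the KD library. The log2 fold change was -0.01 with an interval of -0.06 to 0.04, which includes 0 and excludes a change of 1.5-fold on the deposited scale. The ratio of Epb41 reads to Sptb reads was 1.30 in the Ctrl library and 2.70 in the KD library, a 2.07-fold rise (95% interval 1.95 to 2.20), and such a ratio within a library does not depend on how libraries are scaled. Against the 7 lower genes in turn the ratio rose between 2.07-fold and 2.54-fold. Epb41 held 24.2% of the reads of the 8 genes in the Ctrl library and 42.4% in the KD library.

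Band 3 and protein 4.2 fell by a like amount. Slc4a1, which encodes band 3, spans 102348824 to 102366203 of chromosome 11 (minus strand). It had 5640 reads in the Ctrl library and 2104 in the KD library, corresponding to levels of 5456 and 2393, and a log2 fold change of -1.19 (-1.26 to -1.12). Epb42, at 121017891 to 121037072 of chromosome 2 (minus strand), encodes protein 4.2, a relative of the transglutaminases that has lost enzyme activity. It had 696 and 260 reads in the Ctrl and KD libraries, levels of 673 and 296, and a log2 fold change of -1.18 (-1.40 to -0.98). There was 0.123 Epb42 read for each Slc4a1 read in the Ctrl library and 0.124 in the KD library, and the change of this ratio was 1.001-fold (0.861 to 1.16). For Ank1 the ratio to Slc4a1 was 0.967 and 0.860, a change of 0.889-fold (0.826 to 0.956), so that ankyrin reads were fewer relative to band 3 reads in the KD library.

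The Rh genes and Kel fell by 1.26 to 1.34 on the log2 scale. Rhag, which encodes the Rh-associated glycoprotein, an ammonia channel needed to bring Rh proteins to the surface, spans 40811126 to 40840754 of chromosome 17 (plus strand). It had 1496 and 525 reads in the Ctrl and KD libraries, levels of 1447 and 597, and a log2 fold change of -1.28 (-1.42 to -1.13). Rhd, which encodes the Rh blood group protein, spans 134864536 to 134896172 of chromosome 4 (plus strand). It had 1095 and 388 reads, levels of 1059 and 441, and a log2 fold change of -1.26 (-1.43 to -1.10). The ratio of Rhd reads to Rhag reads was 0.732 in the Ctrl library and 0.739 in the KD library (change 1.010-fold, 0.867 to 1.18). Kel, which encodes the Kell metalloendopeptidase, spans 41686330 to 41704339 of chromosome 6 (minus strand). It had 1628 and 545 reads, levels of 1575 and 620, and a log2 fold change of -1.34 (-1.49 to -1.20). Its partner gene Xk was lower to a lesser degree, with a log2 fold change of -0.82 (-0.98 to -0.67). The ratio of Kel to Xk reads was 1.47 in the Ctrl library and 1.02 in the KD library, a change of 0.696-fold (0.605 to 0.802).

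**Figure D3:**
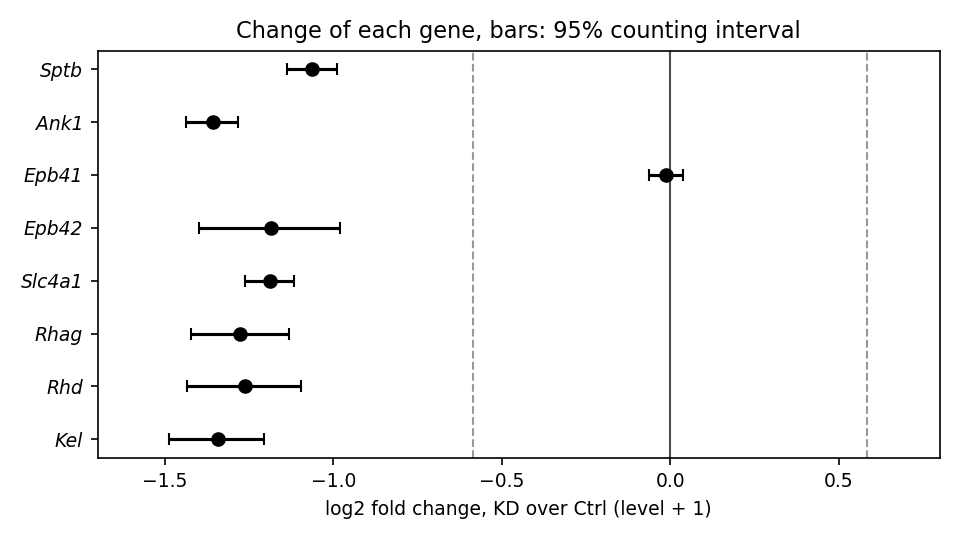
Log2 fold change of each gene, KD over Ctrl, with 95% counting intervals as bars and dashed lines at a change of 1.5-fold. The 7 lower genes lie between -1.36 and -1.06, and Epb41 lies at -0.01.

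The 7 lower genes thus moved within a narrow range, from -1.36 to -1.06. Together they held 21203 reads in the Ctrl library and 7744 in the KD library, which is 0.105% and 0.0423% of all reads. Among the 21 pairs that can be formed from them, the ratio of reads changed by at most 1.23-fold, for Sptb against Ank1. The 95% interval of that change excluded 1 in 6 pairs, of which 5 involved Sptb and the other was Ank1 against Slc4a1. Counting intervals hold no spread between animals, so these differences have no replicate check.

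Levels were compared between genes per kilobase of the longest annotated transcript. In the Ctrl library Slc4a1 was highest, at 1200.45 per kilobase (95% interval 1169 to 1232), followed by Epb41 at 787 (768 to 806) and Rhd at 700 (659 to 742). Ank1 at 631, Kel at 622 and Rhag at 619 followed, with overlapping intervals. Sptb was at 483 (470 to 497) and Epb42 lowest at 164 (152 to 176). In the KD library Epb41 was highest at 780 per kilobase, Slc4a1 second at 526 (504 to 549) and Epb42 lowest at 71.8. Rhd at 291 (263 to 322) overlapped Rhag at 255 (234 to 278) and Kel at 245 (225 to 266) in its interval, and these overlapped Ank1 at 246 and Sptb at 231 in turn. The order depended on the length used. Per kilobase of all exons merged, which is 15.9 kilobases for Epb41 in place of 8.30 and 13.5 for Ank1 in place of 8.37, Slc4a1 was highest and Epb42 lowest in both libraries. In the Ctrl library Rhd at 665, Rhag at 619 and Kel at 568 came next, and Sptb at 413, Epb41 at 410 and Ank1 at 390 followed close together, with Sptb then above Ank1. In the KD library Epb41 at 406 was second, and Rhd, Rhag, Kel, Sptb at 198 and Ank1 at 152 followed in that order.

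A list of 36 other genes of the red cell membrane was compared in the same way. Of these genes 19 were called lower and 2 higher, against 24.2% of all genes lower and 17.2% higher. Their median log2 fold change was -0.60. In the skeleton group 3 of 10 were lower, among them Add2, which encodes beta adducin, at -1.22, and Dmtn, which encodes dematin, at -1.41. The widely expressed skeleton genes Add1, Add3, Tpm3 and Actb had values of -0.14, 0.30, 0.06 and 0.18. Tmod1, which encodes the tropomodulin that caps actin filaments, was higher, with 74 and 192 reads and a log2 fold change of 1.60 (1.21 to 2.02).

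Among 11 surface genes 8 were lower and 1 was higher. Smim1, which carries the Vel blood group, fell most, from 509 to 98 reads, with a log2 fold change of -2.13 (-2.47 to -1.83). Ermap, which carries the Scianna blood group, changed by -1.19, Art4 by -1.06 and Cd59a by -1.09. Gypc, which encodes glycophorin C and anchors protein 4.1 at the membrane, changed by -0.62, and Cd47, which is found on most cells, had a value of -0.15. The higher gene was Cd55, which encodes a complement regulator of many cell types, at 1.13. In the transport group 8 of 15 were lower and 0 higher, led by the water channel gene Aqp1, which had 4161 and 1460 reads and a log2 fold change of -1.28 (-1.36 to -1.19). The others called lower were Abcg2 at -0.90, Bsg at -0.76, Stom at -0.74 and Kcnn4 at -0.65. Slc16a1 at -0.64, Atp2b4 at -0.61 and Aqp9 at -0.59 were lower as well. How widely each partner gene is expressed was not scored, so the genes called widely expressed here are not a full set. The ratio of Slc4a1 to Aqp1 reads changed by 1.06-fold (0.984 to 1.15).

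The 8 genes have relatives that serve other tissues, and 33 of these were listed. Of the 27 whose mean level reached 1, 8 were lower and 5 higher, with a median of 0.22. Of all genes 24.2% were called lower and 17.2% higher. The lower count rested on rare transcripts, since 4 of these genes had 0 reads in the KD library and 7 to 11 reads in the Ctrl library, and with a minimum mean level of 10 it was 3. The abundant relatives had values above 0. Sptbn1, which encodes the non-erythroid beta spectrin, had 15238 and 15048 reads and a log2 fold change of 0.22 (0.18 to 0.25), so that the ratio of Sptb to Sptbn1 reads went from 0.341 to 0.140, a 2.43-fold fall (2.30 to 2.56). Slc4a2, which encodes a widely expressed anion exchanger, changed by 0.45, and the ratio of Slc4a1 to Slc4a2 reads went from 4.70 to 1.51, a 3.11-fold fall (2.83 to 3.41). Epb41l2 was at 0.27, the transglutaminase gene Tgm2 at 0.55 and Ece1, which encodes a metalloendopeptidase related to Kell, was higher at 0.74. Of the Rh relatives of other epithelia, Rhbg had 0 reads in both libraries and Rhcg had 9 and 0.

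**Figure D4:**
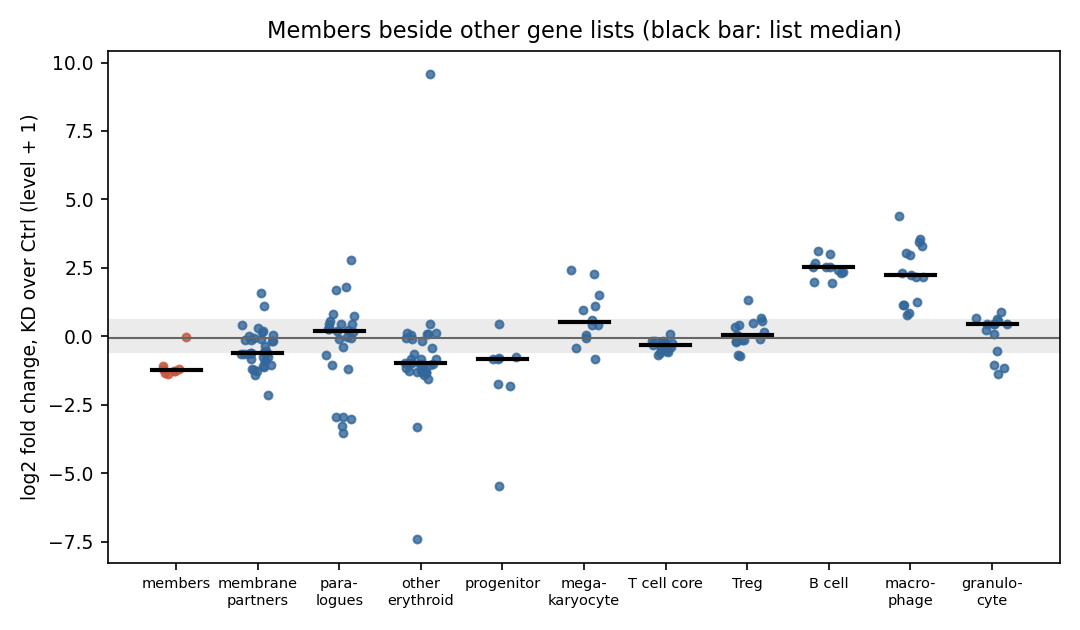
Log2 fold change, KD over Ctrl, of each gene whose mean level reached 1, in 11 lists, with black bars at list medians, a grey line at the median of all genes (-0.04) and a grey band where the change was under 1.5-fold. The red points of the membrane genes lie at -1.36 to -1.06 except Epb41, near the other erythroid genes (median -0.97) and below the T cell core genes (median -0.31).

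Other erythroid genes were lower as well. Of 29 such genes, with the globin genes left out, 23 were called lower and 0 higher, against 24.2% and 17.2% of all genes. Their median was -0.995, and the values of the 7 lower membrane genes all lay below it. The counting intervals of Sptb (-1.137 to -0.990) and Epb42 (-1.398 to -0.980) included that median. The transferrin receptor gene Tfrc changed by -1.28 from 13678 to 4780 reads, Car2, which encodes a carbonic anhydrase, by -1.28, and Klf1 by -1.56. Tal1, which encodes a transcription factor of blood progenitors and erythroblasts, changed by -3.30 from 2586 to 222 reads. The remaining 6 genes, chosen after their values were seen, were under 1.5-fold: Alas2, the first enzyme of erythroid heme synthesis, at 0.05, Slc25a37, the iron importer of erythroid mitochondria, at 0.08, Nfe2 at 0.09, Slc25a38 at -0.09, Bpgm at -0.17 and Ppox at -0.42. The ratio of Slc4a1 to Alas2 reads went from 10.9 to 4.61, a 2.36-fold fall (2.06 to 2.70). The 2 alpha globin genes summed to 5083 and 5484 reads, a log2 fold change of 0.34 (0.29 to 0.40). The 4 beta globin entries summed to 5315 and 5073 reads, at 0.17 (0.11 to 0.22). Within the beta globin sum 2 entries moved in opposite directions. Hbb-bs had 3 reads in the Ctrl library and 2626 in the KD library, while Hbb-b1 had 2583 and 12. Hbb-bt had 776 and 634 reads and Hbb-b2 1953 and 1801. Hbb-b1 and Hbb-b2 had no match in the GENCODE annotation used here for lengths. How reads were divided among these entries was not tested. Against the alpha globin gene Hba-a2 the ratio of Slc4a1 reads went from 1.66 to 0.537, a 3.10-fold fall (2.89 to 3.31), whereas against Tfrc it changed by 1.07-fold (1.005 to 1.13).

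The labelled cell type was Treg, and red cells were lysed during its isolation with a CD4+CD25+ kit. All genes of the T cell core and Treg lists were above 0 in both libraries. So were all genes of the B cell, macrophage and granulocyte lists, so being above 0 does not set the labelled cells apart. The erythroid genes were above 0 in both libraries too, and per kilobase Slc4a1 was at 1200.45 and 526 where Foxp3 was at 390 and 404. In a bulk library, fewer erythroid cells and less of these transcripts per cell cannot be told apart. Markers of other cells also moved between the libraries, where 24.2% of all genes were called lower and 17.2% higher. The summed level of 17 T cell core genes was 75472 in the Ctrl library and 61121 in the KD library, with 2 genes lower and 0 higher, and for 15 Treg genes it was 12171 and 13437, with 2 lower and 2 higher. All 11 B cell genes were higher, from 8341 to 46644, and all 15 macrophage genes, from 27483 to 60432. Lyz2 made up most of the macrophage sum, and the 14 others went from 6481 to 22772. Of 14 granulocyte genes 3 were higher and 3 lower, with a sum of 264848 and 360004. Of 12 megakaryocyte genes past the filter 6 were higher and 1 was lower, with a sum of 1403 and 1837 and Gp6 at 0 in both libraries. Of 8 progenitor genes 7 were lower, from 11059 to 6659, with Mecom at 45 reads and 0. The part of these shifts in the lower levels of the membrane genes was not tested.

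The scaling of the libraries set the size of the changes. With 17 T cell core genes set equal, the 7 lower genes were still called lower, at -1.05 to -0.76, while Epb41 was at 0.30. Of all genes 3209 were then called lower and 4750 higher, and the median of all genes moved from -0.04 to 0.26. With the 29 other erythroid genes set equal, 0 of the 8 were called lower and Epb41 was called higher at 0.99. Under that scaling 2499 of all genes were called lower and 11693 higher, with a median of all genes of 0.95. The 7 genes then lay between -0.36 for Ank1 and -0.06 for Sptb. Against the median of these 29 genes the 7 genes thus differed by less than 1.5-fold, although against single erythroid genes such as Alas2 and Tal1 they differed by more.

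**Figure D5:**
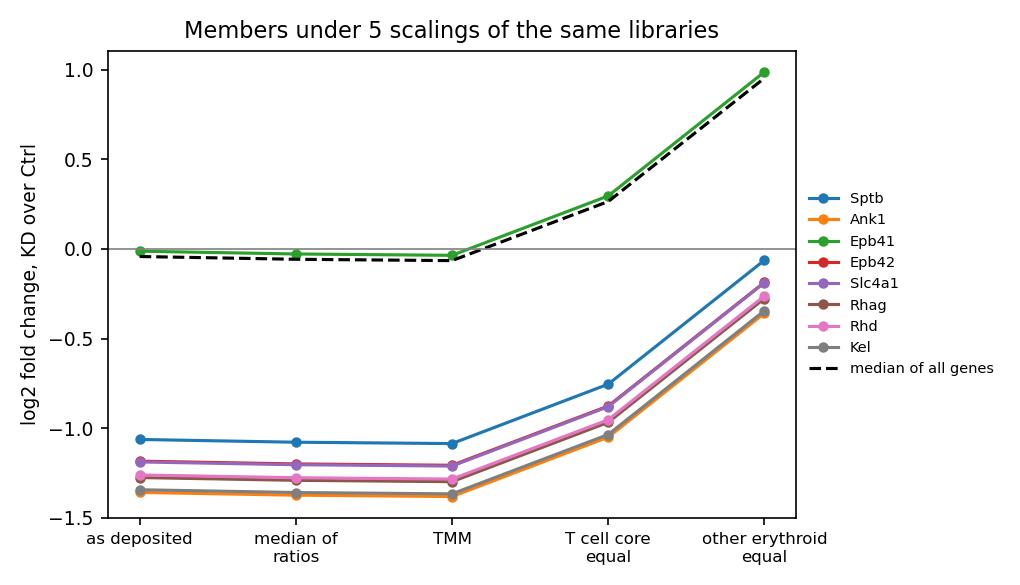
Log2 fold change, KD over Ctrl, of the 8 genes (coloured lines) and the median of all genes (dashed) under 5 scalings of the same 2 libraries. Epb41 runs beside the median of all genes under each scaling shown, and the other genes reach -0.36 to -0.06 when other erythroid genes are set equal.

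Counts recovered from the deposited values were also tested. Tested by an exact binomial test (two-sided) that sets the reads of one library against the other, and so says nothing of the genotypes, 7 of the 8 genes were called lower and 0 higher, against 17.6% of 14863 genes lower and 14.8% higher. With the exact test of edgeR, for which a coefficient of variation between animals has to be assumed, it was again 7 and 0 at a coefficient of 0.2, against 10% lower and 6.26% higher. With an assumed coefficient of 0.4 it was 0 and 0, against 3.83% lower and 1.54% higher. A biological spread of that size between animals would therefore leave none of the 8 genes called, and the spread itself could not be measured here.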

How the data were processed

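RNA-seq of Treg cells was deposited as 1 table per library. The authors aligned reads to mm10 with TopHat per the paper, whereas the submitters' processing notes name bcl2fastq 2.0, STAR, StringTie and DESeq2. The gene annotation was not given in the sources used here. The deposited values are a signal, scaled read counts with a single size factor for each library, since 100% of values were whole multiples of the smallest one (tolerance 0.001). Dividing by it recovered 20239325 reads in the Ctrl library and 18327535 in the KD library, where 3 reads, the floor, are 0.148 and 0.164 reads per 1000000.

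Changes were computed on log2(level + 1) with a minimum mean level of 1 and a threshold of 1.5-fold. The tests on recovered reads used genes with at least 10 reads in all, TMM scaling and a Benjamini-Hochberg adjusted p under 0.1. The binomial test and the counting intervals were tried on simulated Poisson reads, scaled by library totals and without spread between animals. The edgeR tests were not tried on simulated data. Changes of a read ratio have Wald intervals on the log scale, levels per kilobase exact Poisson intervals. All 8 genes are named, with genes from lists written from general knowledge: every membrane gene and relative, and elsewhere the 5 largest changes and the 3 highest levels at a mean level of at least 10. The members and lists were chosen with earlier results of these data known. Of 206 listed genes 205 were in the tables, all except Ahsp, and values of some listed genes are not reported here. Gene positions and lengths come from GENCODE vM21 (GRCm38, the same assembly as mm10), promoters from RefSeq. Python 3.11.15, scipy 1.17.1, pandas 2.3.3, R 4.3.3, edgeR 4.0.16 and DESeq2 1.42.0 were used.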

Additional observations from a re-analysis of the deposited data

How the results depend on the processing

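No paired analysis was possible because there is a single library for each genotype, and for the same reason no library could be left out. The edgeR test with an assumed coefficient of 0.2 was added after seeing the data. With a pseudocount of 0.1 or 5, no filter on low values, and scaling by TMM or by the median of ratios, the change of each of the 8 genes stayed within its counting interval and the counts within 1.5 times those reported.

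A minimum mean level of 10 gave 3 relatives and 2035 of all genes lower, and keeping genes above 0 in both libraries gave 4 and 1904. Setting T cell core genes equal gave a median of -0.92 for the 8 genes, 10 partner genes lower and 4 higher, 10 relatives higher and 4750 of all genes higher, so that 59.7% of all calls were higher, against 41.6% as deposited. Setting other erythroid genes equal gave a median of -0.23, 0 of the 8 genes lower and 1 higher, 1 partner gene lower and 15 higher, 5 relatives lower and 18 higher, and 2499 of all genes lower and 11693 higher (82.4% of calls higher). A 2-fold threshold gave 8 partner genes lower, 3 relatives higher and 1722 of all genes higher. The binomial test gave 4 relatives and 2617 of all genes lower. With edgeR at 0.4, 0 of the 8 genes were lower, 0 partner genes lower and 0 higher, 1 relative lower and 1 higher, and 569 of all genes lower and 229 higher. At 0.2 there were 7 partner genes lower, 2 relatives lower and 2 higher, and 1488 of all genes lower and 931 higher. The scalings differ in which genes they set equal, and for the other settings the cause was not tested.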
